A study of Homo sapiens with 6 samples.

Results

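TRAF1, TRAF2, TRAF3, TRAF4, BIRC2, BIRC3, MAP3K14, TNFAIP3, TNIP1 and CYLD form a group of 10 genes that encode TRAF adaptors, the cIAP ubiquitin ligases, the kinase NIK and inhibitors of NF-kB signalling. Their transcripts were found by gene symbol in the authors' deposited table, 102 of 215170 transcripts, and TPM was summed for each of the 10 Ensembl gene IDs among 63677. TPM is an abundance per transcript length, relative to all transcripts of a library. The 6 libraries are total RNA of KMS27, an established human myeloma line of malignant plasma cells, and ask what overexpressed TAZ changes in the transcriptome. WWTR1 encodes TAZ, a coactivator of transcription under control of the Hippo pathway, and HA is a peptide tag. In 3 libraries the cells overexpressed HA-TAZ. The other 3 carry the treatment label wild type, although their titles contain HA. The promoter of the construct, whether the cells are 1 clone, and whether control cells carried an empty construct are not given in the sources used here.

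Receptors of the TNF family, such as CD40, BCMA and the BAFF receptor, recruit TRAF proteins to their cytoplasmic tails, and TRAF2 brings in cIAP1 (BIRC2) and cIAP2 (BIRC3), which attach ubiquitin to neighbouring proteins. In resting cells TRAF3, TRAF2 and the cIAPs together mark NIK (MAP3K14) for degradation, which holds the non-canonical NF-kB pathway down, and loss of these genes is a known way in which myeloma cells gain NF-kB activity. A20 (TNFAIP3), its partner ABIN1 (TNIP1) and the deubiquitinase CYLD act on ubiquitin chains of the canonical pathway. TNFAIP3, TNIP1, TRAF1 and BIRC3 are also known as NF-kB target genes, so their RNA is often used as a readout of the pathway they restrain.

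Promoter windows of 300 bases were taken from RefSeq on build GRCh38.p14, from 250 bases before to 50 after a start site, and are given 5′ to 3′ on the gene's strand. All 10 genes matched by symbol, with 16 windows in all. The 5 windows below are those of the gene with the largest change (TRAF1), of the A20 and ABIN1 genes and CYLD, and of BIRC3, whose window holds matches while its RNA was near 1 TPM. Capitals mark matches to the kappaB consensus on either strand.
TRAF1, minus strand, chr9:120929122-120929421: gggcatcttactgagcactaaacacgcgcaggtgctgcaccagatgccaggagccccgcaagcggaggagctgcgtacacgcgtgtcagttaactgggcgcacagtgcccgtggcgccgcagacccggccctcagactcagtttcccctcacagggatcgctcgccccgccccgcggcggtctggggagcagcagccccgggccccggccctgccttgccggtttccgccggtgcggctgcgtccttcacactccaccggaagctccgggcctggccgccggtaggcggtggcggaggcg
TNFAIP3, plus strand, chr6:137867009-137867308: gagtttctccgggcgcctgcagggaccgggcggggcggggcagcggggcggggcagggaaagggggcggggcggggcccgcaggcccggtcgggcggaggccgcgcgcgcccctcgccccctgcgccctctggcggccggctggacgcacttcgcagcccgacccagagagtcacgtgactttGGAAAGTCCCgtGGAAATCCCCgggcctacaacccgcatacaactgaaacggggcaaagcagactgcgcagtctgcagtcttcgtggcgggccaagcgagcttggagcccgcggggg
TNIP1, minus strand, chr5:151080985-151081284: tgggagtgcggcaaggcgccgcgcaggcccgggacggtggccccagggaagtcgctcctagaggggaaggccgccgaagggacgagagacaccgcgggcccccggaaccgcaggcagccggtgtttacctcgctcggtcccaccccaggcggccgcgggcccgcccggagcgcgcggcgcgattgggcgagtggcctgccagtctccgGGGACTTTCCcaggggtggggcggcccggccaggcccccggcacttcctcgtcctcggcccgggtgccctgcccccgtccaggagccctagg
CYLD, plus strand, chr16:50741836-50742135: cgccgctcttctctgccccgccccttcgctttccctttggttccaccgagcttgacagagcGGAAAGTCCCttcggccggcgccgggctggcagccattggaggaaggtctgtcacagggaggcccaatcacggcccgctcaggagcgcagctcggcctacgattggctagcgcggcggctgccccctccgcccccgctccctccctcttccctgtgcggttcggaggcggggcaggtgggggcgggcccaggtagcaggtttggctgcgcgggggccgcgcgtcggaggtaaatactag
BIRC3, plus strand, chr11:102317234-102317533: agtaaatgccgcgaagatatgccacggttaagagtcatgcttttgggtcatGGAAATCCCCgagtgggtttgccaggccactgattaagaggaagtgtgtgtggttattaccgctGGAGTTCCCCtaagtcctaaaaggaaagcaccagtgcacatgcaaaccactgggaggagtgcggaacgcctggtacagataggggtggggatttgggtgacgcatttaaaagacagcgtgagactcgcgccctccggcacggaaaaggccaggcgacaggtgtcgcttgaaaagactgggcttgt

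The TNFAIP3 window held 2 kappaB matches, at positions -67 to -58 and -55 to -46 counted from the start base as 0. The TNIP1 window held 1 match at -42 to -33, the CYLD window 1 at -189 to -180, and the BIRC3 window 2 at -199 to -190 and -135 to -126. TRAF3 held 1 match at -33 to -24, and another CYLD window held a match at 0 to 9 that reads on both strands. Over all windows, 6 of 16 held a match, against 11.3% of the 35116 RefSeq promoter windows. Windows of CYLD and of BIRC2 overlap in part, so the 16 are not separate promoters. The matches lay in 5 of the 10 genes, and the share of all genes with a match was not counted. None of the 3 TRAF1 windows held a match. The TEAD-type motif GGAATG and the AP-1-type motif TGANTCA were in 0 of the 16 windows, against 14.0% and 7.71% of all windows, with both strands searched, so no match overlapped another motif's. A match is a run of letters and not a site, and a window without one says nothing about the factor.

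Of the 10 genes, 9 passed the filter of a mean of 1 TPM over the 6 libraries and were tested, and BIRC2 was listed at 0 throughout. In HA-TAZ cells, 5 of the 9 were called higher (TRAF1, TNFAIP3, TRAF4, CYLD and TNIP1) and 0 were called lower, at a limma adjusted p under 0.05. At an unadjusted p under 0.05 the counts were the same, 5 and 0. The share of all genes or transcripts at that unadjusted threshold was not counted, so the unadjusted counts given here have no background beside them. At the adjusted threshold 7.29% of all 22651 tested genes were called, 4.67% higher and 2.63% lower. TRAF1 passed the filter only through the HA-TAZ libraries and so had to differ. The fit used TPM divided by a median-of-ratios factor for each library, called scaled TPM below. Fold changes are on the scale of log2(scaled TPM + 1), which understates changes of genes near 1 TPM. With TPM as deposited, the median fold change of all genes moved from -0.03 to -0.27 on the log2 scale, and only TRAF1, TRAF4 and TNFAIP3 of the 10 were called higher and 0 lower, against 1.15% and 13.5% of all genes. The median fold change of the 9 tested genes was 0.38 on the log2 scale. The scaled TPM of the HA-TAZ libraries lay above that of every control library for 6 of the 9 genes, the 5 called ones and TRAF2, against 20.2% of all tested genes.

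**Figure D1:**
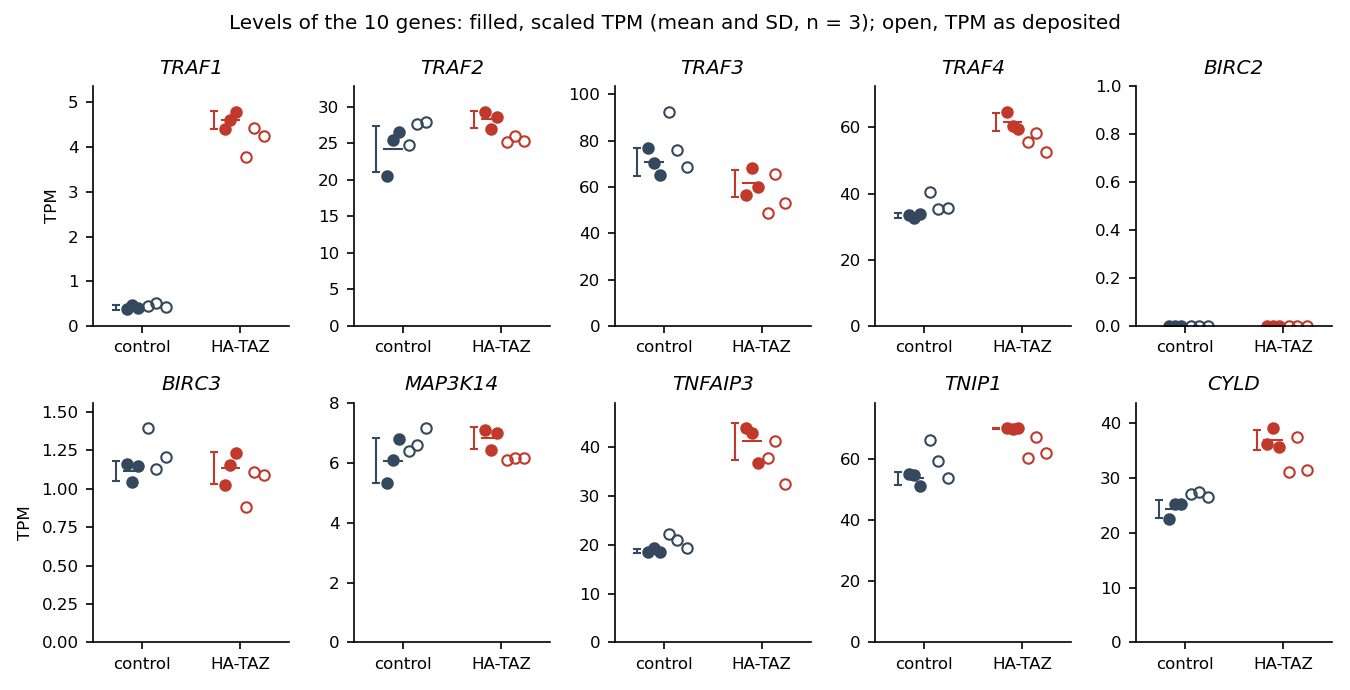
TPM of each of the 10 genes in the 3 control and 3 HA-TAZ libraries, with filled points for scaled TPM (line and bar: mean and SD, n = 3) and open points for TPM as deposited. TRAF1, TRAF4, TNFAIP3 and CYLD are separated by group on both scales, and TNIP1 and TRAF2 only after scaling. TRAF3, BIRC3 and MAP3K14 are separated only as deposited, and BIRC2 is at 0 in all 6 libraries.

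Among the brakes, A20 RNA rose 2.20-fold, and ABIN1 and CYLD RNA rose less. TNFAIP3 (ENSG00000118503) encodes A20, which removes and remodels ubiquitin chains on signalling proteins. It stood at 37.8, 41.3 and 32.5 TPM in HA-TAZ 1, 2 and 3, and at 22.2, 20.9 and 19.4 TPM in control a, b and c. Every HA-TAZ library was above every control library, and control values were close together. After scaling the means were 41.2 ± 3.89 (SD, n = 3) and 18.8 ± 0.491 scaled TPM (SD, n = 3), a ratio of 2.20. The fold change was 1.09 on the log2 scale (SE 0.08, 95% interval 0.90 to 1.28, limma adjusted p = 0.00479). TNFAIP3 was called in all 16 alternative settings, with log2 fold changes from 0.80 to 1.17.

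All 4 TNFAIP3 transcripts above the filter were higher in the mean of the HA-TAZ libraries. The main coding transcript, TNFAIP3-201, was at 17.8, 20.3 and 17.7 TPM against 11.2, 10.3 and 9.15 TPM in the controls, with no overlap. Its log2 fold change was 1.09 (SE 0.07, limma adjusted p = 0.00818). TNFAIP3-203, a coding transcript near the RefSeq start shown above, was at 3.71, 4.84 and 3.21 TPM against 1.52, 1.34 and 1.34 TPM, and its log2 fold change was 1.23 (limma adjusted p = 0.0263). These 2 were called. TNFAIP3-202 and TNFAIP3-205 had log2 fold changes of 0.82 and 0.74 and limma adjusted p-values of 0.0720 and 0.111.

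TNIP1 (ENSG00000145901) encodes ABIN1, which binds ubiquitin and A20. It was at 60.3, 67.2 and 61.9 TPM in the HA-TAZ libraries and 66.1, 59.4 and 53.8 TPM in the controls, and the groups overlapped in the deposited values. After scaling the groups separated, at 70.1, 69.9 and 70.0 against 55.0, 54.8 and 51.2 scaled TPM. The log2 fold change was 0.38 (SE 0.04, 95% interval 0.27 to 0.48, limma adjusted p = 0.0146). With TPM as deposited it was 0.08 and the call was lost (limma adjusted p = 0.514), so the call rests on the scaling between libraries. It was also lost without HA-TAZ 1, HA-TAZ 2, HA-TAZ 3 or control b, where limma adjusted p-values ran from 0.0579 to 0.0752.

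The start sites of TNIP1 did not share this equally. The 4 transcripts that begin within 1000 bases of TNIP1-201, upstream of TNIP1-208 in GENCODE release 29, summed to 30.8, 34.8 and 30.8 TPM in HA-TAZ libraries and 24.1, 23.2 and 20.9 TPM in controls, with no overlap even as deposited. They made up 51.0, 51.9 and 49.8% of TNIP1 in the HA-TAZ libraries and 36.5, 39.0 and 38.8% in the controls. No RefSeq window covered the start of TNIP1-201, so it was not searched for kappaB matches. The 6 transcripts that begin within 1000 bases of TNIP1-208, near the RefSeq window with the kappaB match, summed to 19.9, 21.2 and 21.7 TPM against 24.0, 22.0 and 20.9 TPM, which overlap. After scaling they did not overlap, at 23.1, 22.1 and 24.5 against 19.9 to 20.3 scaled TPM, a ratio of means of 1.16 beside 1.74 for the transcripts near TNIP1-201. These groups of transcripts were chosen after their values were seen and are a description without a test. TNIP1-201 itself was at 15.4, 18.6 and 16.3 TPM against 13.0, 10.8 and 10.5 TPM, and its log2 fold change was 0.80 (SE 0.08, limma adjusted p = 0.0214). TNIP1-203, a retained-intron transcript, ran the other way at 3.63, 4.57 and 3.05 TPM against 10.1, 6.96 and 5.98 TPM, with a log2 fold change of -0.60 (limma adjusted p = 0.114).

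CYLD (ENSG00000083799) encodes a deubiquitinase that trims the chains on which NF-kB signalling complexes assemble, and is a tumour suppressor deleted in part of myelomas. It was at 31.1, 37.6 and 31.5 TPM in the HA-TAZ libraries and 27.1, 27.4 and 26.6 TPM in the controls, without overlap. The scaled means were 37.0 ± 1.88 and 24.4 ± 1.58 (SD, n = 3 each), a ratio of 1.52. The log2 fold change was 0.58 (SE 0.07, 95% interval 0.42 to 0.75, limma adjusted p = 0.0146). With TPM as deposited it was 0.29 (limma adjusted p = 0.0666), and without HA-TAZ 1, HA-TAZ 2, HA-TAZ 3 or control b the limma adjusted p-values were 0.0670, 0.0640, 0.0532 and 0.0560. Of the 9 CYLD transcripts above the filter, limma called 0. At an unadjusted p under 0.05, 3 were higher, a threshold at which the share of all transcripts was not counted. The authors' deposited table had 2 CYLD transcripts with a positive effect at a q-value under 0.05. The nearest to the threshold was CYLD-202, at 9.11, 9.19 and 7.54 TPM against 6.09, 6.54 and 5.53 TPM, with a log2 fold change of 0.71 (limma adjusted p = 0.0647).

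**Figure D2:**
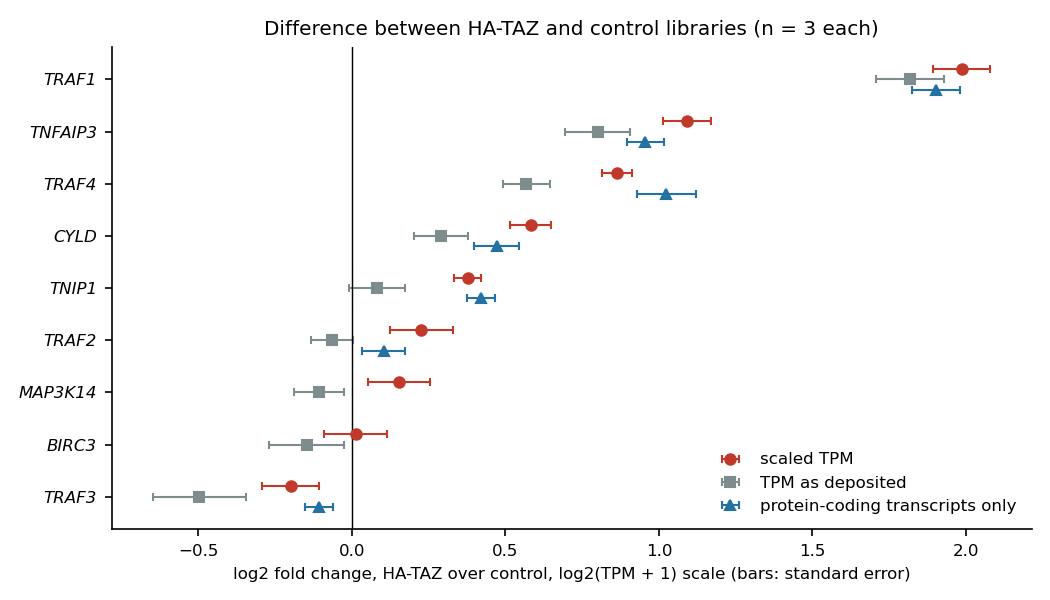
Log2 fold change of HA-TAZ over control for the 9 tested genes on the log2(TPM + 1) scale, with bars for the standard error (3 libraries per group), under scaled TPM, TPM as deposited and protein-coding transcripts only. TRAF1, TNFAIP3 and TRAF4 stay well above 0 in each setting, while TNIP1 moves from 0.38 to 0.08 and TRAF2 from 0.23 to -0.06 with TPM as deposited.

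TRAF1 changed most of the 10. TRAF1 (ENSG00000056558) encodes an adaptor without a RING domain that pairs with TRAF2 and is induced by NF-kB in lymphocytes. Its levels were 3.79, 4.43 and 4.24 TPM in HA-TAZ cells and 0.452, 0.506 and 0.419 TPM in the controls. The groups were far apart relative to their spread, and the ratio of means was 9.05 for TPM as deposited and 11.1 for scaled TPM. With the pseudocount of 1 the log2 fold change was 1.99 (SE 0.09, 95% interval 1.76 to 2.21, limma adjusted p = 0.00136), and with a pseudocount of 0.1 it was 3.20. It was called in all 15 alternatives that kept the gene. At the main filter TRAF1 passed only through the HA-TAZ libraries and so had to differ, which limits what its p-value and calls show. The filter at a mean of 5 TPM removed it.

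The 3 TRAF1 transcripts, all coding, divided this gain unequally. TRAF1-202 was at 2.86, 2.22 and 2.90 TPM in HA-TAZ libraries and was listed at 0 in all 3 controls. Its annotated start lies 2 bases from the RefSeq start of the TRAF1 window shown above. It was the only TRAF1 transcript above the filter, which it passed through the HA-TAZ libraries alone, and its log2 fold change was 1.98 (SE 0.15, limma adjusted p = 0.0112). TRAF1-203 was at 0.371, 1.31 and 0.688 TPM against 0, 0.0218 and 0 TPM. TRAF1-201 was at 0.554, 0.902 and 0.650 TPM against 0.452, 0.484 and 0.419 TPM, so nearly all TRAF1 RNA of the control cells was assigned to TRAF1-201. In the authors' deposited table, the natural log effects were 0.65 for TRAF1-201, 7.39 for TRAF1-202 and 5.13 for TRAF1-203, with q-values of 4.7e-05, 1.3e-79 and 3.56e-07. TRAF1-202 and TRAF1-203 were at or near 0 in the controls, so the sizes of their effects depend on how zeros are handled. They are not measured fold changes. Reads shared between transcripts are apportioned by the quantifier, so the split is less certain than the gene's total.

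TRAF4 (ENSG00000076604) encodes a TRAF family member best known from epithelial tissue and cell polarity. It was at 55.7, 58.1 and 52.6 TPM in the HA-TAZ libraries and 40.4, 35.4 and 35.6 TPM in the controls, with no overlap. The scaled means were 61.6 ± 2.77 and 33.4 ± 0.668 (SD, n = 3 each), a ratio of 1.84. The log2 fold change was 0.86 (SE 0.05, 95% interval 0.74 to 0.98, limma adjusted p = 0.00243), and TRAF4 was called in all 16 alternatives. Coding transcripts gave 41.3, 36.8 and 36.0% of TRAF4 RNA in HA-TAZ libraries and 32.6, 28.5 and 27.7% in controls, the rest being retained-intron and nonsense-mediated decay transcripts. TRAF4-201, which is coding, was at 10.5, 10.9 and 11.0 TPM against 6.58, 6.24 and 6.66 TPM and was the only one called (log2 fold change 0.92, SE 0.09, limma adjusted p = 0.0212). The 6 retained-intron transcripts together were at 17.0, 18.6 and 17.3 TPM against 14.4, 12.2 and 14.1 TPM, also without overlap.

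**Figure D3:**
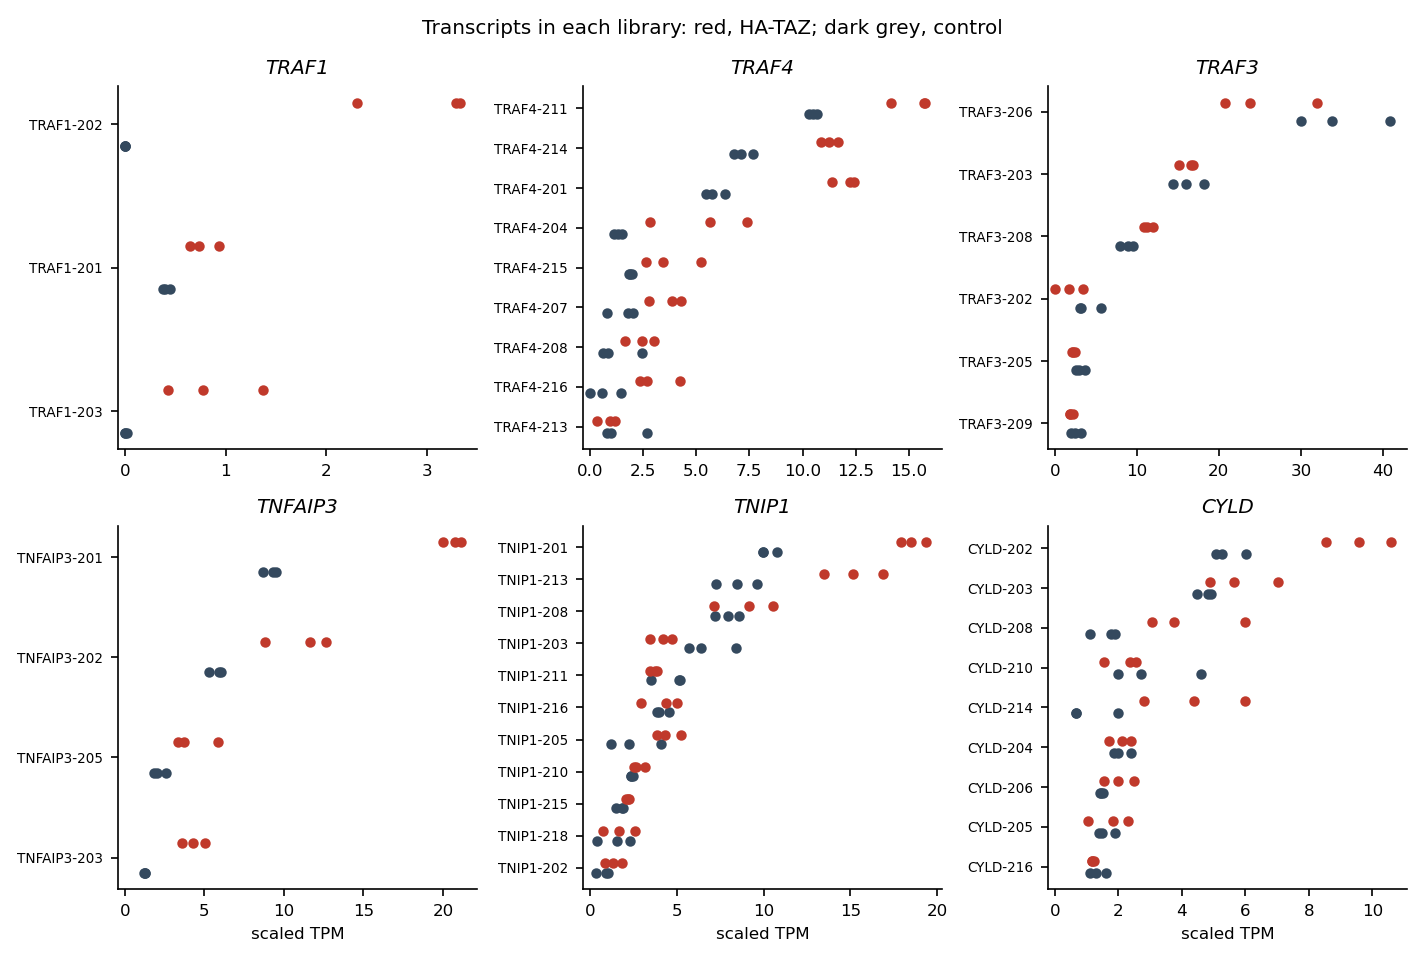
Scaled TPM of each transcript with a mean of at least 1 TPM (all 3 for TRAF1) in the HA-TAZ libraries (red) and the control libraries (dark grey) for 6 of the genes. TRAF1-202 is at 0 in the controls, the TNFAIP3 transcripts move together, and TNIP1-201 separates by group while TNIP1-208 does not.

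TRAF2 and TRAF3, the adaptors of the NIK complex, were not called in any setting. TRAF2 (ENSG00000127191), which recruits the cIAPs, was at 25.2, 26.0 and 25.3 TPM in HA-TAZ libraries and 24.7, 27.6 and 27.9 TPM in controls, which overlap. Its log2 fold change was 0.23 (SE 0.10, 95% interval -0.03 to 0.48, limma adjusted p = 0.198) and turned to -0.06 with TPM as deposited. In the authors' deposited table the main coding transcript, TRAF2-201, had a natural log effect of 0.27 with a q-value of 0.00347.

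TRAF3 (ENSG00000131323), the adaptor that holds NIK for degradation and is often inactivated in myeloma, was at 48.8, 65.5 and 53.0 TPM in HA-TAZ libraries. The controls were at 92.5, 76.1 and 68.6 TPM, all higher, but after scaling the groups overlapped. The log2 fold change was -0.20 (SE 0.09, 95% interval -0.43 to 0.03, limma adjusted p = 0.201), and with TPM as deposited it was -0.50 (limma adjusted p = 0.0676). A large share of the gene's total was TRAF3-206, a short retained-intron transcript, at 17.9, 30.7 and 21.1 TPM against 49.1, 36.7 and 31.5 TPM. After scaling TRAF3-206 overlapped between the groups, with means of 25.5 in HA-TAZ libraries and 34.9 scaled TPM in controls. The 7 coding transcripts summed to 33.7, 34.1 and 33.6 scaled TPM in HA-TAZ libraries and 32.5, 33.8 and 32.4 in controls, which overlap. In TPM as deposited their sum was lower in every HA-TAZ library than in every control library (means 30.5 and 36.5 TPM). Both parts of TRAF3 RNA were thus separated by group only as deposited. In the authors' deposited table TRAF3-208, a coding transcript, had a natural log effect of 0.28 (q-value 3.46e-05) and TRAF3-206 one of -0.32 (q-value 0.291).

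MAP3K14 (ENSG00000006062), the gene of NIK, was at 6.10, 6.17 and 6.17 TPM in HA-TAZ libraries and 6.38, 6.59 and 7.15 TPM in controls. The log2 fold change was 0.15 (SE 0.10, 95% interval -0.10 to 0.40, limma adjusted p = 0.348) and -0.11 with TPM as deposited. Its main transcript, ENST00000587332.1, has no entry in GENCODE release 29 and was at 4.81, 4.89 and 4.91 TPM against 5.58, 5.53 and 5.52 TPM. Coding transcripts in that release gave 8.52, 8.39 and 6.91% of MAP3K14 RNA in HA-TAZ libraries and 0, 2.21 and 5.12% in controls. The type of ENST00000587332.1 is unknown here, so how much of the RNA encodes the kinase cannot be read from these shares. NIK is controlled mainly through the stability of its protein, which these libraries do not measure.

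The cIAP genes were hardly seen. BIRC3 (ENSG00000023445) was at 0.879, 1.11 and 1.09 TPM in HA-TAZ libraries and 1.39, 1.13 and 1.20 TPM in controls. Most of it was BIRC3-205, a transcript annotated without a coding sequence, at 0.649, 0.689 and 0.879 TPM against 1.13, 0.840 and 0.838 TPM, and coding transcripts gave 5.65 to 26.1% of BIRC3 in the 6 libraries. The log2 fold change was 0.01 (SE 0.10, 95% interval -0.24 to 0.26, limma adjusted p = 0.947), and its sign changed between settings. BIRC2 (ENSG00000110330) was listed at 0 in all 6 libraries for each of its 12 transcripts, and the authors' deposited table gave no statistics for them. No fold change can be given for BIRC2.

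The genes that neighbour BIRC2 in the RefSeq order of coding genes on chromosome 11 (assembly GRCh38.p14) were read after these values were seen. Of the next 15 matched genes after BIRC2, 9 were listed at 0 in every library, against 7.07% of 19001 coding genes matched by symbol. They are TMEM123, MMP27, MMP1, MMP3, MMP12, DCUN1D5, DYNC2H1, PDGFD and DDI1. TMEM123 and DCUN1D5 are expressed in most human cell types, whereas the MMP genes are restricted to few. MMP20, MMP8, MMP10 and MMP13 reached at most 0.190 TPM in any library. MMP7 was at 0.955 to 1.98 TPM, nearly all from the retained-intron transcript MMP7-202, with the coding MMP7-201 at 0. CASP4, the 15th gene after BIRC2, was at 4.51 to 9.15 TPM. On the other side, 2 of 15 genes were at 0 in every library (PGR and ANGPTL5), and YAP1, the paralogue of TAZ, reached at most 0.00874 TPM. ARHGAP42, TRPC6, CEP126 and CFAP300 on that side also had a mean below 1 TPM. A mean of at least 1 TPM was reached by 8 of 15 genes before BIRC2 and 2 of 15 after it, against 11662 of the 19001. The genes listed at 0 were at 0 in both groups, whereas MMP7 and CASP4 were lower in every HA-TAZ library than in every control library in TPM as deposited. Whether the genes at 0 are absent, silent or lost in the quantification was not tested.

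**Figure D4:**
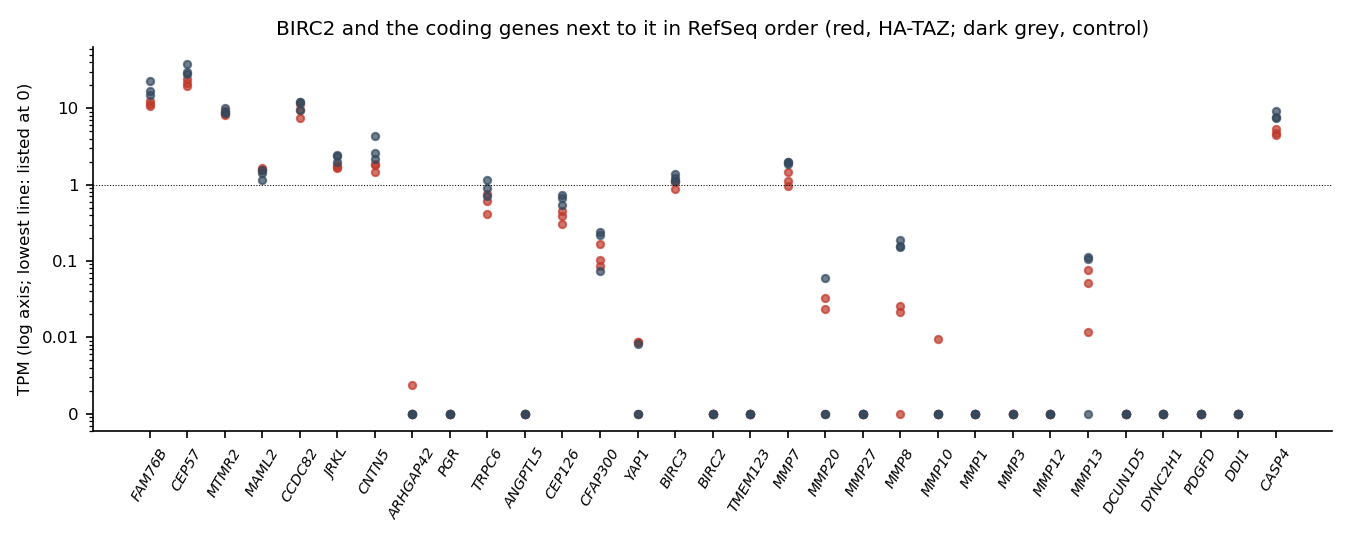
TPM on a log axis in each library (red, HA-TAZ; dark grey, control) for BIRC2 and the 15 coding genes on each side in RefSeq order, with values listed at 0 drawn on the lowest line and a dotted line at 1 TPM. BIRC2 and 9 of the 15 genes after it are at 0 in all 6 libraries, and CASP4 at the right end is at 4.51 to 9.15 TPM.

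Ratios between genes within a library do not depend on the scaling between libraries. TRAF1 over TRAF2 was 0.150, 0.171 and 0.168 in HA-TAZ libraries and 0.0183, 0.0183 and 0.0150 in controls, a difference of 3.25 on the log2 scale. TRAF1 over TRAF3 was 0.0777, 0.0677 and 0.0800 against 0.00488, 0.00665 and 0.00611, a difference of 3.68. The groups did not overlap in either ratio, and both gave p = 0.1 in the exact two-sided permutation test (adjusted p = 0.15 over 3 ratios), the smallest p that 3 against 3 libraries allow. TRAF1 is on top of both ratios and passed the filter only through the HA-TAZ libraries, so they restate its difference and add no support to it. In every HA-TAZ library TRAF1 was still below TRAF2 and TRAF3. TRAF3 over MAP3K14 was 7.99, 10.6 and 8.59 against 14.5, 11.5 and 9.59, which overlap (difference -0.38, exact permutation p = 0.2). BIRC3 over BIRC2 could not be formed because BIRC2 was listed at 0.

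In control cells the TPM levels ran from TRAF3 (79.1 ± 12.2, SD, n = 3) through TNIP1, TRAF4, CYLD, TRAF2, TNFAIP3, MAP3K14 and BIRC3 to TRAF1 (0.459 ± 0.0439, SD, n = 3) and BIRC2. Each gene was above the next in all 3 control libraries except CYLD and TRAF2, where CYLD was higher in 1 of 3. In HA-TAZ cells TNIP1 (63.1 ± 3.61, SD, n = 3) came before TRAF3 and TRAF4, and TRAF3 was above TRAF4 in 2 of 3 libraries. TNFAIP3 stood above CYLD and TRAF2 in every HA-TAZ library and below both in every control library. TRAF1 moved past BIRC3.

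At the level of transcripts, 46 of the 102 passed the filter and 5 were called higher by limma (TRAF1-202, TRAF4-201, TNFAIP3-201, TNFAIP3-203 and TNIP1-201), with 0 lower. Of these, TRAF1-202 passed the filter through the HA-TAZ libraries alone and so had to differ. At an unadjusted p under 0.05 there were 19 higher and 1 lower, a threshold at which the share of all transcripts was not counted. Over all 57448 tested transcripts 0.432% were called higher and 0.103% lower. The authors' deposited table gave statistics for 76 of the 102. At a q-value under 0.05 the authors' deposited table held 18 positive effects and 1 negative one among them, against 4.08% and 1.6% of its 109487 transcripts. The positive ones belonged to TRAF4 (5), TNFAIP3 (4), TRAF1 (3), TNIP1 (2), CYLD (2), TRAF2 (1) and TRAF3 (1) in the authors' deposited table, and the negative one was TNIP1-203 (effect -0.49, q-value 0.0368). The mean natural logs in the authors' deposited table imply geometric means of 3897 estimated counts for TNFAIP3-201, 2384 for TNIP1-201 and 1525 for TRAF4-201 over the 6 libraries. Summing only protein-coding transcripts left 7 of the 10 genes tested, of which the 5 called before were called higher and 0 lower, against 9.47% and 9.41% of all genes in that setting. In that setting TRAF4 had a log2 fold change of 1.02 and TNIP1 one of 0.42.

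Other genes of the pathway were read from 5 lists, chosen with earlier results of these data known. Beside the counts of each list, 4.67% of all tested genes were called higher and 2.63% lower. Of 11 NF-kB subunit and IkB genes, all tested, 8 were called higher and 0 lower by limma, with a median log2 fold change of 0.61 against -0.03 over all tested genes. RELB, the subunit that NIK signalling activates, was at 27.2 ± 0.549 against 14.2 ± 1.07 TPM (SD, n = 3 each). Its log2 fold change was 1.18 (limma adjusted p = 0.0106). BCL3, NFKBIZ and NFKBIE, all members of the IkB family, had log2 fold changes of 1.11, 0.96 and 0.92 (limma adjusted p = 0.00271, 0.00723 and 0.0130). NFKB2, NFKBIA, NFKBIB and REL were also called, with log2 fold changes of 0.63, 0.61, 0.54 and 0.49. With TPM as deposited 5 of the 8 kept the call and NFKBIA, NFKBIB and REL lost it, and the list's median was 0.32 against -0.27.

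Median log2 fold changes of the lists of other TRAF and adaptor genes, kinases and ligases, and other brakes were 0.17, 0.18 and 0.17. The 9 tested genes of the 10 had a median of 0.38. Single genes did not follow this order, with NLRC5 and TNIP2 above TNIP1, and genes under the filter are not in these medians. Of 10 other TRAF and adaptor genes only TANK, which binds TRAF proteins, was called higher by limma (log2 fold change 0.30, adjusted p = 0.0331), and 0 were called lower, with 5 higher and 1 lower at an unadjusted p under 0.05. TRAF5, the closest relative of TRAF3 in the list, had a log2 fold change of -0.40 (limma adjusted p = 0.0947). It was at 0.886 ± 0.159 TPM in HA-TAZ libraries and 1.78 ± 0.164 TPM in controls (SD, n = 3 each). TRAF5 passed the filter only through the control libraries, which limits what its p-values and calls show. The TANK call was lost in each of the 6 fits that left out a library (limma adjusted p from 0.0642 to 0.118), without the trend (0.0596) and with factors over protein-coding genes (0.0547). With TPM as deposited it was lost as well (log2 fold change 0.01), and TRAF5 was called lower (log2 fold change -0.56, limma adjusted p = 0.0411). Of 16 tested kinase and ubiquitin ligase genes of NF-kB activation, 0 were called in either direction by limma. At an unadjusted p under 0.05, 6 were higher and 0 lower. The share of all genes at this unadjusted threshold was not counted, so no trend can be read from it for this list or the TRAF list. The largest differences were 0.43 for RBCK1 and 0.30 for SHARPIN, subunits of the linear ubiquitin ligase (limma adjusted p = 0.0510 and 0.157). Of 12 tested gene IDs of other brakes 2 were called higher by limma, NLRC5 (log2 fold change 0.67) and TNIP2 (0.50), which encodes ABIN2, and both calls were lost with TPM as deposited. Without HA-TAZ 1, HA-TAZ 2 or HA-TAZ 3 the number of called NF-kB subunit and IkB genes fell from 8 to 3, 4 and 4, without control b or control c to 5, and none of the other brakes was called in the fits without an HA-TAZ library or control b.

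Of 15 genes of receptors that signal through TRAF proteins, 8 passed the filter, and 2 were called higher by limma. TNFRSF12A, the receptor of TWEAK, was at 4.31 ± 0.575 against 1.41 ± 0.352 TPM (SD, n = 3 each). Its log2 fold change was 1.36 (adjusted p = 0.00912 by limma). TNFRSF9, known as 4-1BB, was at 2.38 ± 0.316 against 0.765 ± 0.257 TPM and passed the filter only through the HA-TAZ libraries (log2 fold change 1.11, limma adjusted p = 0.0134). Both calls held with TPM as deposited, where TNFRSF17, the gene of BCMA, was called lower (log2 fold change -0.35, limma adjusted p = 0.0311). In the main setting TNFRSF17 was at -0.05 (limma adjusted p = 0.714). Without HA-TAZ 1 or HA-TAZ 2 neither receptor was called, and without HA-TAZ 3 or control b only TNFRSF12A was, by limma in each case.

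**Figure D5:**
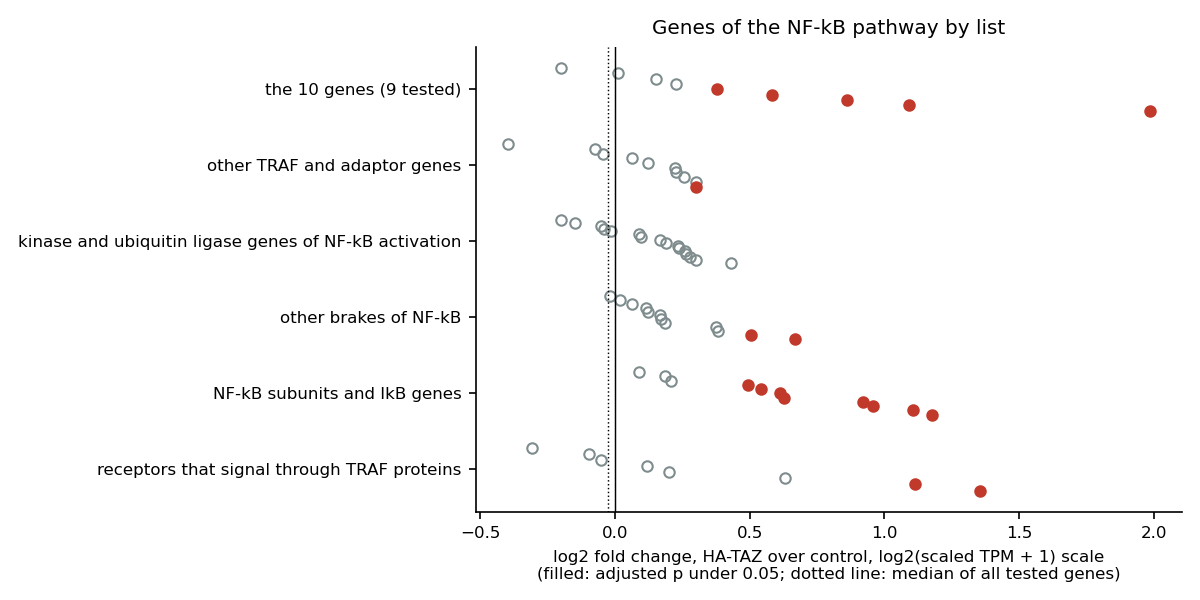
Log2 fold change of HA-TAZ over control on the log2(scaled TPM + 1) scale for the 9 tested genes of the 10 and the tested genes of the 5 lists, filled where the limma adjusted p was under 0.05, with a dotted line at the median of all tested genes (-0.03). The called genes all lie to the right, 8 of 11 in the list of NF-kB subunits and IkB genes and 0 of 16 in the list of kinases and ligases.

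The libraries bear on all values above as follows. WWTR1 was at 293 to 306 TPM in the HA-TAZ libraries and 1.69 to 2.69 TPM in the controls, in the direction of the labels. The 9 plasma cell markers were all above 5 TPM in the mean and summed to 2785 to 3217 TPM in HA-TAZ libraries and 4270 to 4825 TPM in controls, mostly from IGJ. On the scaled values limma called SLAMF7 higher (log2 fold change 0.95) and CD38 lower (-0.61), and the other 7, IGJ among them (-0.33, limma adjusted p = 0.0654), were not called. The T cell, myeloid, fibroblast and epithelial lists each summed to at most 6.08 TPM. The part of these marker differences in the changes of the 10 genes was not tested. In such bulk samples fewer cells with a transcript and less of it per cell cannot be told apart. The deposited TPM carry no depth, so the depth of each library is unknown and precision was judged from the spread between libraries. Per the labels' protocols libraries were made in triplicate from equal amounts of RNA, and no label states separate cultures, so p-values measure only the spread between these libraries, which may be technical.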

How the data were processed

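Total RNA of KMS27 cells, depleted of ribosomal RNA, was sequenced from both ends in 3 HA-TAZ and 3 wild type libraries, per the labels' protocols. The submitters' processing notes list kallisto 0.46.0, sleuth 0.30.0, FastQC, MultiQC and build GRCh37, with no role given. The annotation release and the use of strand are not given in the sources used here, so values of overlapping or antisense genes are uncertain. The authors deposited TPM per transcript, with the same sum in each library. The authors' deposited table of a Wald test gives p-values and q-values per transcript, per the file headers, and expresses effects as natural log ratios of estimated counts, positive where HA-TAZ was higher, per the file headers and a comparison with TPM. Columns of HA-TAZ libraries match sample titles. The other 3 columns, named scr, were taken as wild type by elimination and are called control a, b and c. The name scr is in no label.

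TPM was summed per Ensembl gene ID and divided by median-of-ratios factors over 21512 genes (0.860, 0.961 and 0.884 for HA-TAZ 1 to 3, and 1.20, 1.08 and 1.05 for control a to c). Genes with a mean of at least 1 TPM (22651) were tested with limma 3.58.1 with trend in R 4.3.3, on log2(scaled TPM + 1). Two-sided p-values were adjusted by Benjamini-Hochberg over all genes tested, with calls under 0.05. The 57448 transcripts above the same filter were tested alike. Ratios were compared by exact permutation in scipy 1.17.1. The limma script was tested on simulated data first. Transcript types and starts came from GENCODE release 29, promoter sequences and gene order from RefSeq. The 10 genes and the 5 lists were chosen with earlier results of these data known. Named are the 10 genes and, from the lists, each called gene and the 2 largest changes of a list. TRAF5, TNFRSF17, the neighbours of BIRC2 and the TNIP1 start groups were named for values already seen, except that TRAF5 also has the largest change of its list. Alternatives were the scaling, pseudocount, filter, trend, summing by symbol and leaving out each library. Factors over all or over protein-coding genes, and coding transcripts only, were chosen after seeing the data.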

Additional observations from a re-analysis of the deposited data

How the results depend on the processing

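TRAF1, TRAF4 and TNFAIP3 kept their direction and call in every alternative that tested them, but TRAF1 passed the main filter only through the HA-TAZ libraries. Of the 10 genes, 5 were called, 3 with TPM as deposited and 3 to 5 when a library was left out. The changes with TPM as deposited go with the shift of the median of all genes to -0.27 on the log2 scale, where the fold changes of TRAF2, BIRC3 and MAP3K14 became -0.065, -0.15 and -0.11, and those of TNIP1 and CYLD 0.08 and 0.29. BIRC3 was also at -0.028 with factors over protein-coding genes, and its fold change ran from -0.017 to 0.055 with a library left out, below 0 without HA-TAZ 3 (-0.017) or control b (-0.013), and the cause was not tested. Over all genes 1652 were called (64.0% higher), 3329 with TPM as deposited (7.84% higher), 691 without a filter, 756 without the trend and 118 to 470 with a library left out, where fewer libraries remain. Over all transcripts 307 were called (80.8% higher), 120 with TPM as deposited (57.5% higher), 1655 at a mean of at least 5 TPM, 112 without a filter, 155 without the trend and 12 to 114 with a library left out. For TRAF1 over TRAF2, TRAF1 over TRAF3 and TRAF3 over MAP3K14 the log2 differences with a library left out ran from 3.15 to 3.30, 3.55 to 3.78 and -0.52 to -0.23. At a q-value under 0.01 the authors' deposited table kept 14 positive transcripts of the 18. No paired analysis was possible because it is unknown which control column is which wild type sample, and the labels tie no replicate number to a batch.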
